A study of Homo sapiens with 12 samples.

Results

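Homologous recombination rebuilds a broken chromosome from its sister, and the Fanconi pathway unhooks crosslinked DNA strands and hands the resulting break to the same machinery. The genes of both systems were followed here in AU565 across 4 culture formats. AU565 is a long-established line of human breast cancer cells that carries extra copies of the receptor gene ERBB2. Members were the rows of the count table whose symbol names a Fanconi protein with a letter from A to M, a RAD50 to RAD59 family protein, BRCA1 or BRCA2, XRCC1 to XRCC6, or one of PALB2, BRIP1, BARD1, BLM, EXO1, RBBP8, NBN, MRE11 and ATM. Antisense transcripts and pseudogenes were left out. The rule found 36 genes of the 16020 rows, all of which passed the filter on low counts. It passed over FANCD2, whose symbol ends in a digit, and took in RAD54L2, a nuclear remodelling ATPase that shares a name stem with RAD54L.

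The 4 formats were a monolayer, small spheroids, large spheroids and capsules, each with 3 RNA-seq libraries. All 12 libraries, monolayers included, carry the same treatment label: liquid overlay with 5% matrigel after trastuzumab, the antibody against the ERBB2 receptor, and 96 h of incubation before RNA was taken. The cells are labelled wild type, every library comes from this 1 cell line, and none of the 12 libraries is labelled untreated. What a capsule is, how large the spheroids were, and whether the 3 libraries of a format came from separate cultures is not stated in those labels. The p-values below therefore rest on the spread among 3 libraries a format, which may be technical.

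In recombination, the MRE11-RAD50-NBN complex finds the broken end and activates the kinase ATM. RBBP8 (CtIP), EXO1 and BLM then trim one strand. BRCA1, bound to BARD1, brings in PALB2 and BRCA2, and BRCA2 helps to assemble the protein filament that invades the intact sister. RAD54L, RAD51AP1 and the paralog group of RAD51B, RAD51C, RAD51D, XRCC2 and XRCC3 assist that step. In the Fanconi pathway a core complex of FANCA, FANCB, FANCC, FANCE, FANCF, FANCG, FANCL and FANCM ubiquitinates the pair FANCI and FANCD2. These reactions need a replicated sister and serve cells in S and G2 phase, whereas the Ku proteins XRCC5 and XRCC6 with XRCC4 join ends directly throughout the cycle. In breast tissue the genes are best known because inherited loss of BRCA1, BRCA2 or PALB2 raises cancer risk.

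Promoters of the members are shown first because many members moved together. RefSeq (assembly GRCh38.p14) gave at least 1 promoter for 31 of the 36 genes, and RAD54B, NBN, FANCI and XRCC5 were among the 5 without one. The 250 bases before each start were searched on both strands for 4 forms of the E2F site (TTTCCCGC, TTTGGCGC, TTTCGCGC, TTTGCCGC), the motif of the factors that switch on S-phase genes. FANCA and FANCC were the 2 members with a match, or 6.45% of 31, beside 5.35% of the 12175 genes of the count table that had a promoter. They are printed 5′ to 3′ on the strand of the gene with the match in capitals, and both hold one at -172 to -165 relative to the start. FANCC holds a second at -46 to -39. None of these overlaps another motif searched.
FANCA (chr16:89816648-89816897, minus strand): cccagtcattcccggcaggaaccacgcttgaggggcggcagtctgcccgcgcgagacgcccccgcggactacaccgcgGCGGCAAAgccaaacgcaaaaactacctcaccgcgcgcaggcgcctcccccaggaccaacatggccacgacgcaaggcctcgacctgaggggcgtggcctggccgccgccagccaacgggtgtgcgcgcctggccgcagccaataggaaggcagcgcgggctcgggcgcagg
FANCC (chr9:95317710-95317959, minus strand): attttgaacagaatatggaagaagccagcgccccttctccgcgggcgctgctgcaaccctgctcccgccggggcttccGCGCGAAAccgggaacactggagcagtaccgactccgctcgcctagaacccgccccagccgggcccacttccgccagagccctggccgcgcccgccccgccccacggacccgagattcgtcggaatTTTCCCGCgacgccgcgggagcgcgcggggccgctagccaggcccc

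The CCAAT box, the binding letters of the factor NF-Y, was the most frequent of the cell-cycle motifs searched. A CCAAT on either strand stood in 14 of the 31 promoters (45.2%, against 41% of the 12175). BLM has 3 and RAD51AP1 has 1 in the window printed here with the boxes in capitals, and these genes lie among the members with the widest range over the formats.
BLM (chr15:90717096-90717345, plus strand): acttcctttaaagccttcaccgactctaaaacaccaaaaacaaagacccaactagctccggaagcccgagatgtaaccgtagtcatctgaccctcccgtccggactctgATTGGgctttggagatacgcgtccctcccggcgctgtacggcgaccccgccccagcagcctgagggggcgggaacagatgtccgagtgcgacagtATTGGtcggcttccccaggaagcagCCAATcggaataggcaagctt
RAD51AP1 (chr12:4538640-4538889, plus strand): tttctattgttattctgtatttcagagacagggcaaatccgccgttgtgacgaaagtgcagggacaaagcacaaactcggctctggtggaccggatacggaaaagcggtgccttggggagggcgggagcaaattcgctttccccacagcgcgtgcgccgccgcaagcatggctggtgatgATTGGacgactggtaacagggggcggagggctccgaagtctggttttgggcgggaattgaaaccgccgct
The cell cycle homology region (TTTGAA or TTCGAA) was present in 4 of 31 (12.9%, against 13.8%), the NRF1 core (GCATGCGC) in 2 (6.45%, against 5.4%) and the SP1 box (GGGCGG) in 21 (67.7%, against 71.3%). All 5 shares lie near those of the table's other genes. A letter match is no evidence of binding, and a window without one says nothing of the factor.

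Library totals ran from 13971346 to 24729250 counts. The 14 markers of luminal breast epithelium, ERBB2 and keratins among them, summed to between 16212 and 27113 CPM (counts scaled to library size) in every library. Capsule replicate 1 stood apart from the other capsule libraries: its counts differed from theirs by a chi-square of 39.1 and 34.6 per gene over about 11700 genes, whereas the other 10 replicate pairs lay between 2.8 and 12.6. Heart muscle markers, 5 of 7 present, summed to 200.5 and 199 CPM in monolayer replicates 1 and 2 and to 69.8 and 61.9 CPM in large spheroid replicates 1 and 2, against 10.4 to 23.8 CPM in the other 8 libraries. MYH6 and MYH7, the heart myosins that define the type, were at 0 to 0.382 CPM in those 8 libraries. Melanocyte markers, 6 of 7 present, summed to 54.8 to 115 CPM in monolayers, 23.3 to 30.0 in large spheroids and 6.27 to 7.71 in small spheroids and capsules. Mesenchymal markers, 7 of 9 present, reached 61.4 to 107.3 CPM in monolayers and 23.1 to 65.5 elsewhere. Endothelial markers (4 of 5) and leukocyte markers (2 of 5) stayed at or below 18.0 and 53.8 CPM. Beyond the values given below without single libraries, the part of these signals in the results was not tested.

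Of the 36 genes, 35 differed among the 4 formats by the F test, which called 90.0% of all 15175 genes tested. The gene left uncalled was RAD51D, of the paralog group, at 2.42 to 6.26 CPM. By mean level, 17 members were highest in capsules, 13 in monolayers, 5 in large spheroids and 1 in small spheroids. Their lowest level fell in large spheroids for 16, in small spheroids for 15, in monolayers for 4 and in capsules for 1. The commonest order, with 12 genes, had the top in capsules and the bottom in large spheroids. RAD54L, RAD51AP1, EXO1 and BLM were among these, whereas ATM was highest in monolayers and lowest in small spheroids, as the map of genes by library shows. The tallies of highest and lowest formats were not made over all genes, so they cannot be read as particular to the members. They rest on levels before the correction for GC content and length described below.

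**Figure D1:**
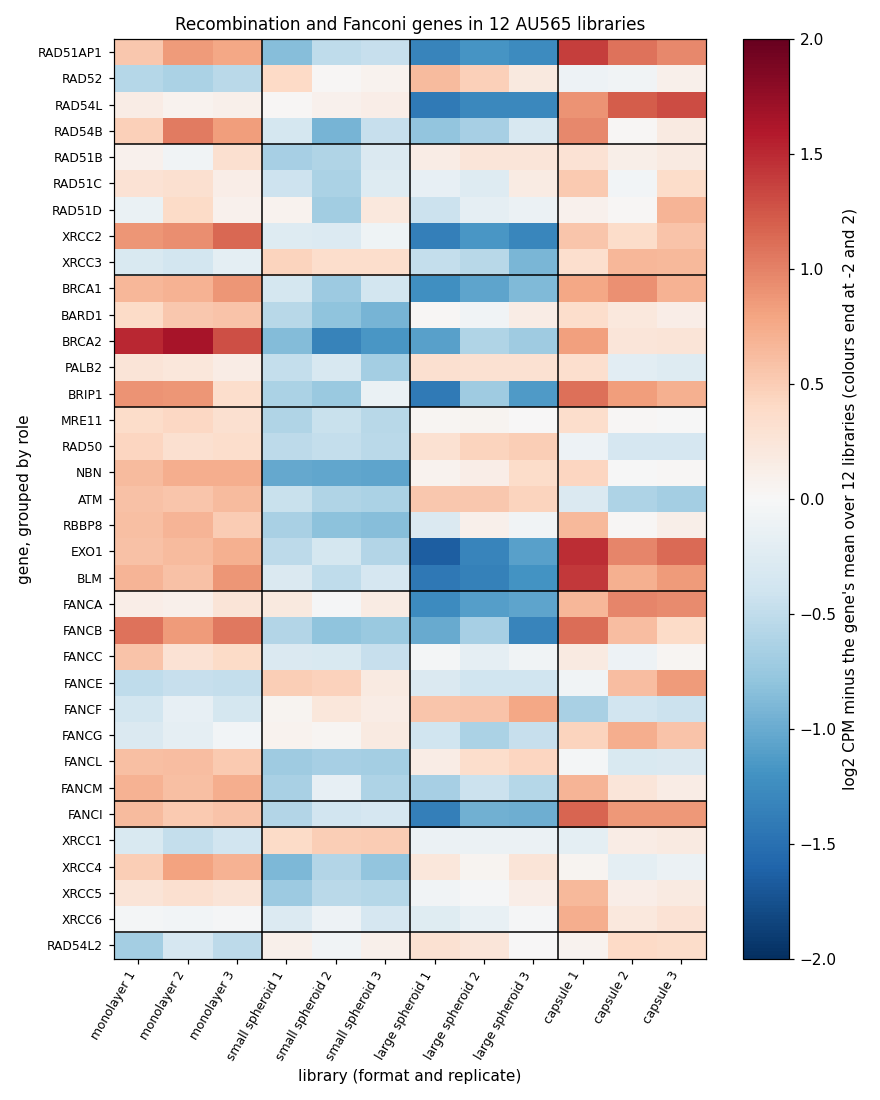
Each row is 1 of 35 genes and each column 1 library, with colour giving the log2 CPM minus the gene's mean over the 12 libraries, and lines parting the formats and the roles. RAD51AP1, RAD54L, EXO1, BLM, FANCA and FANCI are blue in large spheroids and red in capsules, whereas RAD50 and ATM are red in monolayers and large spheroids.

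Levels per kilobase of transcript spanned a wide range. NBN (134 CPM per kb in monolayers), XRCC6 (105) and XRCC5 (72.05) stood far above the fourth, FANCI (13.7), and the median member lay at 4.58. The same 3 genes led in the other formats, where XRCC6 was first. BRCA2 had 1.84 CPM per kb in monolayers and 0.30 in small spheroids, where it was the lowest of the 36. The thinnest counts belonged to RAD54B (at least 16 in any library), BRIP1 (18), FANCB (26), RAD51D (32) and BRCA2 (41), so their folds are the least precise. In all, 12 members, FANCA, ATM and BRCA1 among them, share part of their span with another gene of the table, and the strand setting of the counting is not given, so reads of such pairs could be mixed.

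In small spheroids most members stood below monolayers. A gene was called at an adjusted p below 0.05, and 24 members were called lower (66.7%) where 35.3% of all genes were, while 7 were called higher (19.4%, against 37.0%). The median log2 fold change of the members was -0.89, beside 0.01 over all genes. BRCA2, NBN, FANCB and XRCC4 had the largest falls. All 7 genes of break sensing and resection and all 5 of the BRCA group were called lower. In the fit corrected for GC content and length, described below, 6 of the 7 and 3 of the 5 were still called, without MRE11, PALB2 and BRIP1. The 7 called higher were RAD52, XRCC3, FANCE, FANCF, FANCG, XRCC1 and RAD54L2.

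Large spheroids also stood below monolayers, with 23 members called lower (63.9%, against 28.4% of all genes) and 4 called higher (11.1%, against 28.7%). The median was -0.48, beside 0.00. Here the deepest falls were those of BRCA2, XRCC2, BLM and RAD51AP1, and the 4 higher were RAD52, FANCF, XRCC1 and RAD54L2. RAD51B, PALB2, RAD50, ATM and XRCC6 lay within 0.10 of 0 on the log2 scale and were not called.

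Capsules and monolayers differed in both directions. In capsules 13 members were called higher (36.1%, against 34.5% of all genes) and 10 lower (27.8%, against 31.5%), shares near the background, and the median of 0.06 was near the 0.04 of all genes. Without capsule replicate 1 the lower count became 15, beside 33.2% of all genes. RAD54L and FANCE had the largest rises, ATM and BRCA2 the largest falls. After the GC and length correction 18 members were called higher and 5 lower (31.2% and 32.0% of all genes), with a median of 0.27 beside -0.02.

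Between the spheroid sizes the members went both ways. Large spheroids had 12 called higher than small ones (33.3%, against 32.9%) and 13 lower (36.1%, against 33.4%), again near the background, with a median of 0.04. The 12 higher were RAD51B, BARD1, PALB2, MRE11, RAD50, NBN, ATM, RBBP8, FANCF, FANCL, XRCC4 and XRCC5. The 13 lower included RAD51AP1, RAD54L, XRCC2, XRCC3, BRCA1, EXO1, BLM, FANCA, FANCE, FANCG, FANCI and XRCC1. Among the 7 sensing and resection genes, the 5 that detect a break or open its end rose, and EXO1 and BLM fell. After the GC and length correction 6 of the 12 higher calls were lost, those of RAD51B, BARD1, MRE11, RBBP8, FANCF and XRCC4, and 3 of the lower calls, those of FANCE, FANCG and XRCC1. The correction also called 5 more members lower: RAD54B, BRCA2, BRIP1, FANCB and FANCM. Corrected counts were therefore 6 higher and 15 lower (26.1% and 24.9% of all genes), with a median of -0.12 beside 0.02.

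Capsules stood above small spheroids, with 28 members called higher (77.8%, against 27.0% of all genes) and 2 lower (5.56%, against 25.0%), FANCF and XRCC1. The median was 0.72, beside 0.02. Scaling by library totals moved the split of all called genes from 51.9% to 62.9% higher in this comparison. The members then had 29 higher and 2 lower (33.3% and 19.6% of all genes). RAD51AP1, EXO1, BRCA2 and FANCB had the largest rises.

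Between capsules and large spheroids, 20 members were called higher in capsules (55.6%, against 32.1% of all genes) and 6 lower (16.7%, against 30.6%), with a median of 0.54 beside 0.02. EXO1, RAD54L, RAD51AP1 and BLM were 5.09- to 5.83-fold higher. The 6 lower in capsules were RAD52, PALB2, RAD50, ATM, FANCF and FANCL, of which PALB2 was not called after the correction for GC content.

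**Figure D2:**
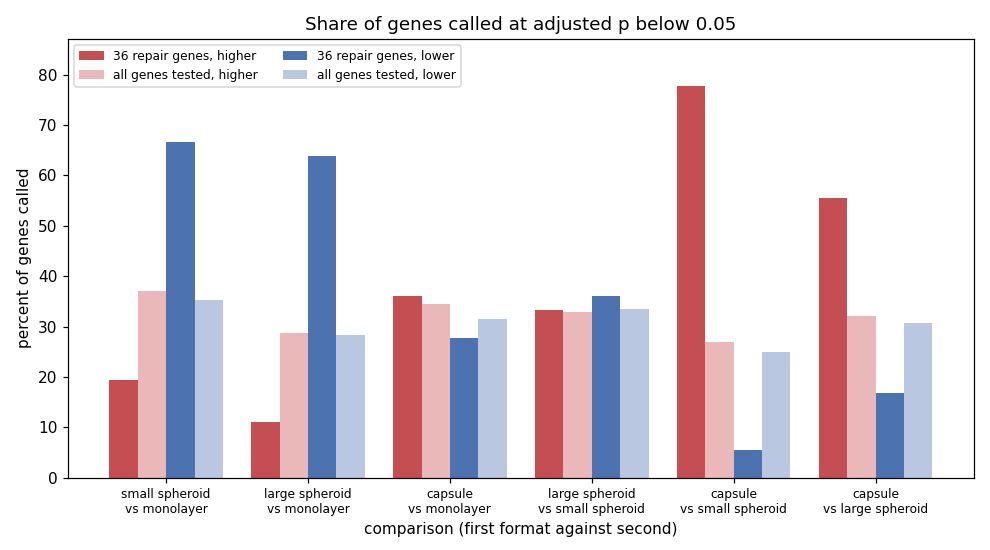
Bars give the percent of the 36 repair genes (dark) and of all 15175 genes tested (pale) called higher (red) or lower (blue) in the first format named. The dark bars exceed the pale ones most for lower calls in both spheroid formats against monolayers (66.7% and 63.9%) and for higher calls in capsules against small spheroids (77.8%).

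These transcripts are poorer in G and C than most, with a median GC content of 42.5% against 49.3% over all genes with a value, and the members' folds moved with it. Across the 36 genes the Spearman correlation between GC content and log2 fold change was 0.911 for small spheroids against monolayers, 0.451 for large spheroids against monolayers and 0.703 for capsules against monolayers. It was -0.437 for large against small spheroids, -0.563 for capsules against small spheroids and 0.0327 for capsules against large spheroids. Over all 14638 genes with a GC value the same figures were 0.678, 0.195, 0.437, -0.663, -0.505 and 0.29. These are descriptions across genes that share 12 libraries. In small spheroids against monolayers, 23 of the 27 members below 49.3% GC were called lower, and 5 of the 9 at or above it were called higher. The shares of all genes on each side of 49.3% were not counted. The trend over all genes ran the same way (0.678), so these counts cannot be read as particular to the members.

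A fit that first removed each library's trend with GC content and transcript length gave other counts. Small spheroids against monolayers then had 4 members called higher and 22 lower (29% and 32.2% of all genes), with a median of -0.32, and XRCC3 and FANCG passed from higher to lower. Large spheroids against monolayers had 5 higher and 22 lower (30.1% and 31.3% of all genes), and capsules against monolayers 18 and 5 (31.2% and 32.0%). Large against small spheroids had 6 higher and 15 lower (26.1% and 24.9% of all genes). Capsules had 25 higher and 2 lower against small spheroids (24.0% and 21.8%) and 26 and 5 against large spheroids (31.8% and 32.1%). Whether the trend with GC content arose in the cells or in the libraries cannot be told apart here, so folds from this fit are called corrected and are given beside many of the main ones.

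**Figure D3:**
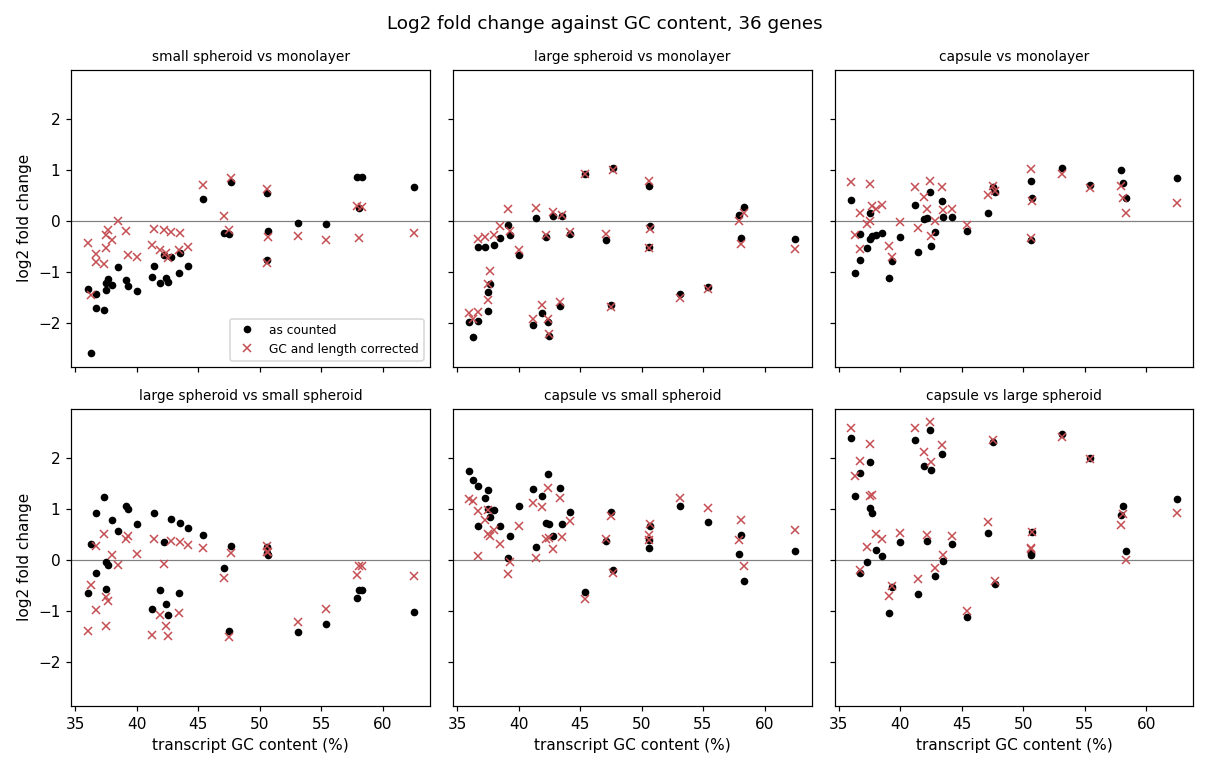
Each point is 1 of 36 genes, with transcript GC content in percent on the x axis and log2 fold change on the y axis, as counted (black) and after the GC and length correction (red crosses). The black points climb with GC content in small spheroids against monolayers (Spearman 0.911) and show no slope in capsules against large spheroids (0.0327).

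Of the strand invasion genes, RAD54L and RAD51AP1 were lowest in large spheroids and highest in capsules. RAD54L, the motor protein of strand exchange (chr1:46247688-46278473, GRCh38.p14), had 9.06, 8.62 and 8.77 CPM in the monolayer libraries, 8.27, 8.71 and 8.95 in small spheroids, 3.07, 3.36 and 3.33 in large spheroids and 15.3, 18.8 and 20.1 in capsules. Monolayers and small spheroids overlapped, though small spheroids were called lower after correction (-0.29), large spheroids lay below both, and capsules above. The log2 fold change was -1.43 ± 0.14 for large spheroids and 1.04 ± 0.12 for capsules against monolayers, and 2.47 ± 0.14 (SE), adjusted p = 1.49e-10 for capsules against large spheroids. RAD51AP1, which stimulates joint formation (chr12:4538890-4560047), had 18.8, 23.1 and 22.04 CPM in the monolayer libraries, 7.13, 9.09 and 9.33 in small spheroids, 5.16, 5.66 and 5.40 in large spheroids and 33.4, 27.2 and 25.1 in capsules. No 2 formats overlapped, and the order ran from large spheroids through small spheroids and monolayers to capsules. Its fold against monolayers was -1.33 ± 0.14 in small spheroids, which the correction brought to -0.43, and -1.98 ± 0.14 in large spheroids, which it brought to -1.81. RAD54B, a relative of RAD54L at 1.21 to 4.73 CPM, was called lower in both spheroid formats than in monolayers (-1.36 and -1.39), but the former was not called after correction. RAD52, the annealing protein, went the other way, with 0.76, 1.03 and 0.56 against monolayers in small spheroids, large spheroids and capsules, all called. Its 9 libraries of those formats (14.4 to 24.0 CPM) lay above all monolayers (9.97 to 10.6).

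**Figure D4:**
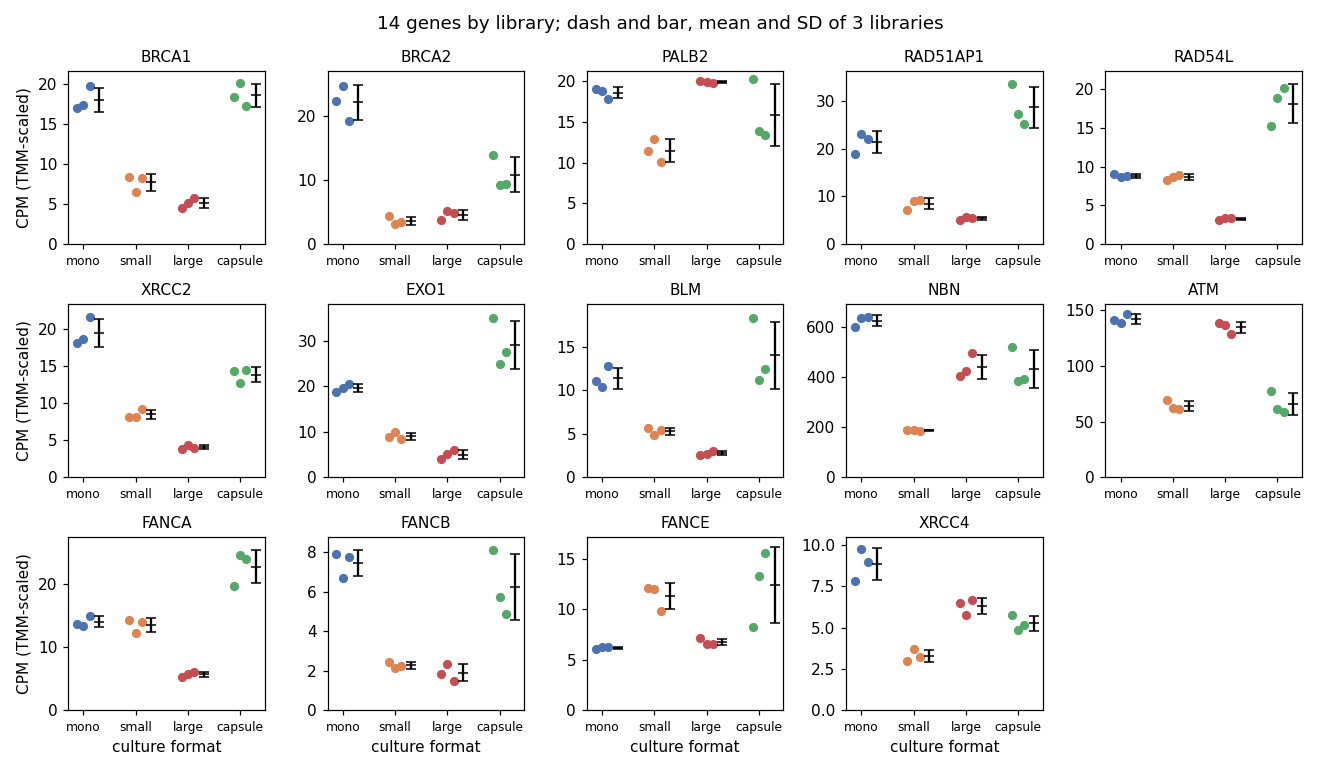
Each panel gives the TMM-scaled CPM of 1 gene, with points for the 3 libraries of each format and a dash and bar for their mean and SD. RAD54L, EXO1 and FANCA dip in large spheroids and peak in capsules. BLM dips in large spheroids too, but its capsule points overlap those of monolayers. ATM lies between 129 and 147 in monolayers and large spheroids and between 58.8 and 77.5 in the other formats.

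Within the paralog group, XRCC2 and XRCC3 had the widest range over the formats. XRCC2 (chr7:152644776-152676141), a member of the BCDX2 complex, had 18.1, 18.7 and 21.7 CPM in the monolayer libraries, 8.20, 8.10 and 9.26 in small spheroids, 3.82, 4.36 and 3.97 in large spheroids and 14.3, 12.7 and 14.6 in capsules. The formats did not overlap, and large spheroids were 4.80-fold lower than monolayers (-2.26 ± 0.13 (SE), adjusted p = 2.03e-10), a fold that the correction left at -2.21. XRCC3, the partner of RAD51C and the member richest in GC at 62.5%, averaged 25.1 ± 1.5 CPM in monolayers, 39.8 ± 1.52 in small spheroids, 19.7 ± 3.07 in large spheroids and 44.9 ± 5.59 in capsules (SD, n = 3). It was called higher in small spheroids than in monolayers (0.67) but lower after correction (-0.24 (adjusted p = 0.00846)), whereas capsules stood above monolayers in both fits (0.84 and 0.36). RAD51B and RAD51C were lower in small spheroids (-0.63 and -0.67), neither call surviving correction, and neither was called in large spheroids or capsules against monolayers. RAD51D was called in no comparison.

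BRCA2 showed the deepest fall of the 36 genes before correction. This partner of PALB2 (chr13:32315077-32400268) had 22.3, 24.7 and 19.2 CPM in the monolayer libraries, 4.33, 3.10 and 3.52 in small spheroids, 3.71, 5.16 and 4.83 in large spheroids and 13.9, 9.28 and 9.36 in capsules. All 9 libraries of the other formats lay below all monolayers, the spheroid formats overlapped, and capsules stood between. Small spheroids were 6.01-fold lower than monolayers (-2.59 ± 0.19 (SE), adjusted p = 2.66e-09) and large spheroids 4.82-fold lower (-2.27 ± 0.18 (SE), adjusted p = 1.14e-08). After correction these were -1.44 and -1.92, and both remained called, but XRCC2 in large spheroids (-2.21) then fell further. In capsules the BRCA2 fall of -1.02 became -0.28 (adjusted p = 0.0601) after correction and -1.24 without capsule replicate 1.

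BRCA1, the ubiquitin ligase subunit that starts recombination (chr17:43044295-43170327), had 17.1, 17.4 and 19.8 CPM in the monolayer libraries, 8.40, 6.51 and 8.34 in small spheroids, 4.58, 5.16 and 5.80 in large spheroids and 18.4, 20.1 and 17.3 in capsules. Both spheroid formats lay below all monolayers and capsules, while capsules overlapped monolayers. Its log2 fold change was -1.22 ± 0.13 (SE), adjusted p = 2.44e-07 in small and -1.80 ± 0.13 (SE), adjusted p = 6.07e-09 in large spheroids, and 0.04 ± 0.12 (SE), adjusted p = 0.781 in capsules. After correction it was -0.57 and -1.64 in the spheroid formats, and capsules were called higher than monolayers (0.48 (adjusted p = 0.00152)). BRIP1, the helicase also known as FANCJ, followed the same order at lower counts, from 1.34 CPM in large spheroids to 5.16 in capsules by mean, with -1.77 against monolayers in large spheroids. Its fall in small spheroids (-1.21) was not called after correction (-0.27 (adjusted p = 0.299)).

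PALB2, the bridge between BRCA1 and BRCA2 (chr16:23603165-23641310), had 19.1, 18.8 and 17.8 CPM in the monolayer libraries, 11.5, 12.9 and 10.02 in small spheroids, 20.05, 19.8 and 19.8 in large spheroids and 20.2, 13.9 and 13.4 in capsules. Large spheroids lay slightly above monolayers in every library but were not called (0.10 ± 0.13 (SE), adjusted p = 0.542). Small spheroids were lower than monolayers (-0.70 ± 0.14 (SE), adjusted p = 0.000283), though not after correction (-0.22 (adjusted p = 0.101)), and capsules were spread widely because replicate 1 stood above the other 2. BARD1, the partner of BRCA1, was higher in large than in small spheroids (0.79, corrected 0.10 and not called) while BRCA1 was lower (-0.58, corrected -1.07). The 2 genes were tested each on its own, and the difference between them was not tested.

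The sensors ATM and RAD50 were not called different between monolayers and large spheroids and were lower in small spheroids and capsules. ATM, the kinase (chr11:108223067-108369102), had 142, 139 and 147 CPM in the monolayer libraries, 69.3, 62.1 and 61.1 in small spheroids, 138, 137 and 129 in large spheroids and 77.5, 61.5 and 58.8 in capsules. Large spheroids and monolayers were not called different (-0.08 ± 0.09 (SE), adjusted p = 0.486), whereas small spheroids were 2.22-fold lower than monolayers (-1.15 ± 0.10 (SE), adjusted p = 1.31e-08) and capsules 2.16-fold lower (-1.11 ± 0.10 (SE), adjusted p = 2.83e-08). After correction the fall was -0.19 in small spheroids and -0.48 in capsules, still called, and large spheroids were called higher by 0.23. The capsule fall without replicate 1 was -1.24.

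NBN, the subunit of the MRN complex that recruits ATM, had 600.5, 637 and 641 CPM in the monolayer libraries, 189, 189 and 185 in small spheroids, 404, 424 and 497 in large spheroids and 521, 384 and 394 in capsules. No 2 formats overlapped apart from large spheroids and capsules. Its fold against monolayers was -1.74 ± 0.11 (SE), adjusted p = 4.89e-10 in small spheroids, -0.50 ± 0.10 in large spheroids and -0.53 ± 0.10 in capsules. After correction these were -0.84 and -0.32, both still called, and -0.06 (adjusted p = 0.481) in capsules, no longer called. Large spheroids exceeded small ones by 1.24 ± 0.11 (SE), adjusted p = 4.87e-08, corrected 0.52. RAD50, the ATPase of the complex, averaged 77.9 ± 3.09 CPM in monolayers, 42.4 ± 0.853 in small spheroids, 80.8 ± 5.53 in large spheroids and 50.9 ± 4.92 in capsules (SD, n = 3). Its log2 fold change of 0.93 ± 0.09 between the spheroid sizes was 0.41 after correction, still called. Correction also ended its call in capsules against monolayers (-0.61, then -0.13) and called large spheroids higher than monolayers (0.25). MRE11, the nuclease of the complex, gave -0.90 in small spheroids against monolayers and 0.57 in large against small spheroids, and these became -0.00 and -0.10 after correction, neither called. In capsules against monolayers it was called lower (-0.23), but higher after correction (0.31).

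EXO1 and BLM, which extend resection, were lowest in large spheroids and highest in capsules by mean. EXO1, the exonuclease (chr1:241847986-241889939), had 18.8, 19.5 and 20.5 CPM in the monolayer libraries, 8.80, 9.84 and 8.41 in small spheroids, 3.997, 5.06 and 5.92 in large spheroids and 35.01, 24.8 and 27.6 in capsules. For EXO1, large spheroids lay lowest, then small spheroids, then monolayers, then capsules, with no overlap between formats. Capsules exceeded large spheroids 5.83-fold (2.54 ± 0.15 (SE), adjusted p = 3.83e-10), the widest of all differences among the members between these formats, and still by 2.39 without capsule replicate 1. BLM, the helicase lost in Bloom syndrome (chr15:90717346-90816166), had 11, 10.3 and 12.7 CPM in the monolayer libraries, 5.60, 4.85 and 5.43 in small spheroids, 2.55, 2.71 and 2.99 in large spheroids and 18.3, 11.2 and 12.4 in capsules. The spheroid formats lay below monolayers without overlap, and capsules overlapped monolayers. Its log2 fold change was -1.10 ± 0.18 in small spheroids and -2.04 ± 0.18 in large spheroids against monolayers, and 2.35 ± 0.19 (SE), adjusted p = 1.22e-08 in capsules against large spheroids. The small spheroid values of EXO1 and BLM against monolayers, -1.12 and -1.10, were -0.63 and -0.46 after correction, both still called, and BLM was then called higher in capsules than in monolayers (0.66). RBBP8 (CtIP), which starts resection, was higher in large than in small spheroids (0.70), with 0.13 and no call after correction.

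**Figure D5:**
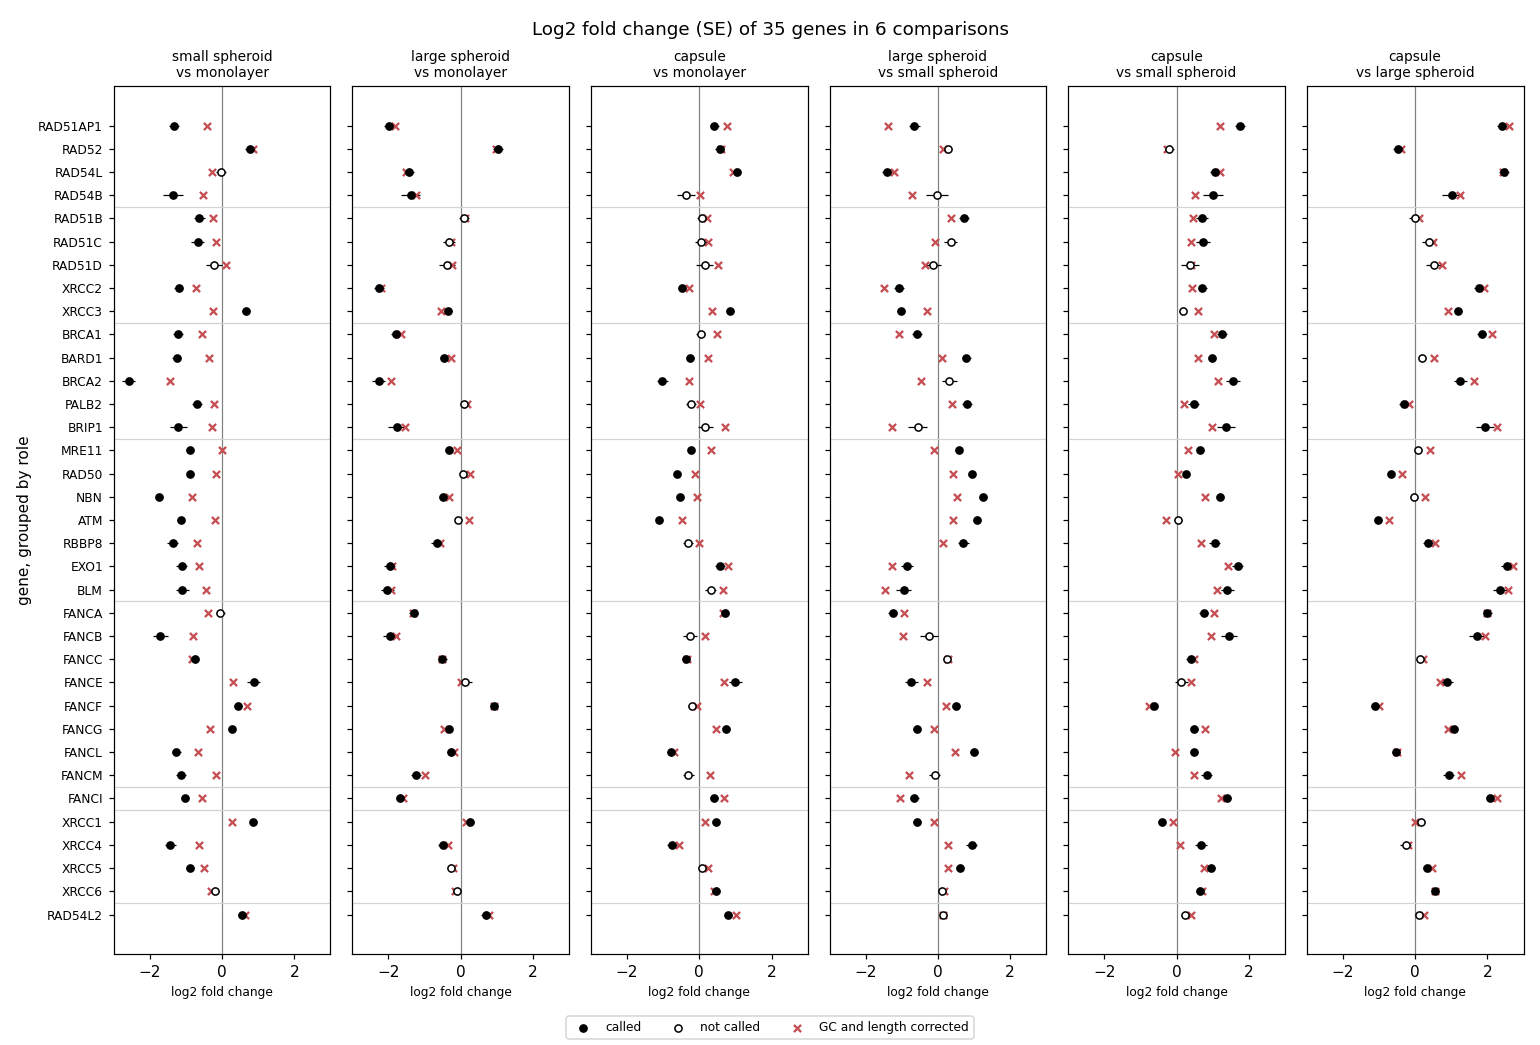
Points give the log2 fold change of 35 genes in the 6 comparisons with its SE as a bar, filled where called, and red crosses give the value after the GC and length correction. In large against small spheroids RAD54L, EXO1, BLM and FANCA lie left of 0 and RAD50, NBN and ATM right of it in both fits.

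The Fanconi core complex did not move as 1 block. FANCA, the subunit mutated most often in Fanconi anaemia (chr16:89737549-89816647), had 13.7, 13.4 and 15.01 CPM in the monolayer libraries, 14.3, 12.3 and 14 in small spheroids, 5.21, 5.81 and 6.03 in large spheroids and 19.7, 24.7 and 24.00 in capsules. Monolayers and small spheroids overlapped, though small spheroids were called lower after correction (-0.38), large spheroids lay below both and capsules above. Its log2 fold change was -1.30 ± 0.12 (SE), adjusted p = 1.55e-07 in large spheroids against monolayers, 0.70 ± 0.11 in capsules against monolayers and 2.00 ± 0.12 (SE), adjusted p = 6.84e-10 in capsules against large spheroids. Its promoter is the first of those printed. FANCC, printed with it for the same motif, ran differently: it averaged 15.2 ± 1.55 CPM in monolayers, 8.92 ± 0.572 in small spheroids, 10.6 ± 0.52 in large spheroids and 11.7 ± 1.15 in capsules (SD, n = 3), and capsules were not called different from large spheroids (0.14).

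FANCB, the X-linked subunit that pairs with FANCL and FAAP100 (chrX:14689524-14873069), had 7.90, 6.70 and 7.76 CPM in the monolayer libraries, 2.47, 2.12 and 2.22 in small spheroids, 1.85, 2.36 and 1.49 in large spheroids and 8.09, 5.71 and 4.86 in capsules. Both spheroid formats were lower than monolayers (-1.71 ± 0.21 (SE), adjusted p = 1.55e-06 and -1.95 ± 0.21 (SE), adjusted p = 5.66e-07) and overlapped each other, with capsules overlapping monolayers. After correction the falls were -0.81 and -1.79, both still called, and large spheroids were called lower than small ones (-0.98). The translocase FANCM fell by like amounts in both (-1.14 and -1.23), of which the correction left -0.18, no longer called, and -0.98, still called. FANCL, the ubiquitin ligase of the complex, was called lower in every other format than in monolayers (-1.27, -0.27 and -0.79 in small spheroids, large spheroids and capsules), the second not after correction (-0.19).

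FANCE, FANCF and FANCG took other courses. FANCE, which links the core to FANCD2 (chr6:35452338-35467102), had 6.08, 6.27 and 6.24 CPM in the monolayer libraries, 12.1, 11.96 and 9.79 in small spheroids, 7.13, 6.56 and 6.55 in large spheroids and 8.28, 13.3 and 15.6 in capsules. Small spheroids and capsules lay above monolayers, and large spheroids were slightly above monolayers without a call (0.12 ± 0.18 (SE), adjusted p = 0.601). The rise in capsules was 1.0 ± 0.18 (SE), adjusted p = 0.000113, and in small spheroids 0.87 ± 0.18, which was not called after correction (0.29). FANCF, the adaptor of the complex, was highest in large spheroids, at 22.8 ± 2.06 CPM against 12.02 ± 0.892 in monolayers (SD, n = 3), 0.92 ± 0.11 (SE), adjusted p = 1.88e-06 on the log2 scale. FANCG was highest in capsules, 0.74 above monolayers. It was called higher in small spheroids than in monolayers (0.26) but lower after correction (-0.33 (adjusted p = 0.00313)).

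FANCI, the substrate of the core complex, had EXO1's order of formats at higher levels. Its means were 64.7 ± 2.43 CPM in monolayers, 32.02 ± 2.85 in small spheroids, 20.4 ± 3.08 in large spheroids and 85.3 ± 10.6 in capsules (SD, n = 3), and capsules exceeded large spheroids by 2.07 ± 0.12 (SE), adjusted p = 1.9e-10. FANCD2, its partner outside the member rule, had -1.53 ± 0.09 in large spheroids against monolayers and rose by 1.27 ± 0.09 in capsules against large spheroids, but was lower in capsules than in monolayers (-0.26 ± 0.09), where FANCI was higher (0.40 ± 0.11).

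End joining genes gave a mixed picture. XRCC4, the cofactor of DNA ligase IV (chr5:83077547-83374473), had 7.85, 9.74 and 8.998 CPM in the monolayer libraries, 2.999, 3.71 and 3.21 in small spheroids, 6.49, 5.76 and 6.67 in large spheroids and 5.75, 4.88 and 5.14 in capsules. All 9 libraries of the other formats lay below all monolayers, with -1.43 ± 0.15 (SE), adjusted p = 2.57e-07 in small spheroids, -0.50 ± 0.14 in large spheroids and -0.76 ± 0.14 in capsules. After correction these were -0.64, -0.36 and -0.55, all still called. XRCC5 (Ku80) was lower in small spheroids than in monolayers (-0.88), and XRCC6 (Ku70), its obligate partner, was not called there (-0.20, adjusted p = 0.124). After correction both were called lower, XRCC5 at -0.51 and XRCC6 at -0.31. XRCC6 was higher in capsules than in every other format (0.46, 0.66 and 0.56 against monolayers, small and large spheroids). XRCC1, the scaffold of single-strand break repair, was the 1 member highest in small spheroids, at 40.4 ± 2.05 CPM against 22.3 ± 1.32 in monolayers (SD, n = 3), 0.86 on the log2 scale and 0.27 after correction. RAD54L2 was higher than monolayers in all 3 other formats (0.55, 0.69 and 0.79).

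Capsule replicate 1 lay above both other capsule libraries for 23 members, below both for 10 and between them for 3. Its log2 distance from their mean ran from -0.81 to 0.86 and correlated with GC content at a Spearman rho of -0.688 over the 36 genes. Neither these counts nor this correlation were made over all genes. As the library also stood apart over the count table, they cannot be read as particular to the members. Without capsule replicate 1, 20 members were called higher and 7 lower in capsules than in large spheroids (33.1% and 32.2% of all genes), and 27 higher and 2 lower than in small spheroids (24.1% and 23.1%). RAD54B, PALB2, RAD50 and FANCC lost their call against small spheroids, as did RBBP8 and XRCC5 against large spheroids. Leaving out the 4 libraries with heart muscle transcripts, which leaves 1 monolayer and 1 large spheroid library, gave 2 higher and 14 lower in large spheroids against monolayers (12.4% and 10.4% of all genes) and 7 higher and 7 lower in capsules against monolayers (22.9% and 22.1%). Large against small spheroids then had 12 higher and 8 lower (25.5% and 24.7%). The lone library of each format was assumed to vary like the others.

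Genes of cell division, none of them members, were counted in the same comparisons. All 26 mitotic genes listed were called lower in large spheroids than in monolayers (28.4% of all genes were), with a median log2 fold change of -2.11. All 26 were called higher in capsules than in large spheroids (median 2.39), where 32.1% of all genes were. HMMR, a spindle protein, changed by -3.23 ± 0.10 (adjusted p = 9.22e-13) and KIF20A, a kinesin of cell separation, by -2.55 ± 0.09 in the first comparison. Of 30 replication fork genes, 26 (86.7%) were lower and 1, the helicase subunit MCM3 (0.54 ± 0.08), higher in large spheroids than in monolayers (median -0.73). In capsules against monolayers 27 (90%) were higher and 1 lower (median 0.96), against 34.5% and 31.5% of all genes. RRM2, the ribonucleotide reductase subunit, had -1.75 ± 0.08 in the first of these and UHRF1, which reads hemimethylated DNA, 2.11 ± 0.13 in the second. In small spheroids against monolayers the mitotic list had 1 higher and 22 lower (3.85% and 84.6%, median -1.12). The fork list had 10 higher and 15 lower (33.3% and 50%), against 37.0% and 35.3% of all genes. All 26 mitotic genes were lower in large than in small spheroids, where the members had 12 higher and 13 lower (32.9% and 33.4% of all genes). After the GC and length correction the members had 6 higher and 15 lower there (26.1% and 24.9% of all genes). In bulk RNA, fewer dividing cells and less RNA per dividing cell cannot be told apart, and the part of cell division in the members' values was not tested.

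Other Fanconi and recombination genes outside the member rule, 48 tested, were counted between capsules and large spheroids. In capsules 28 were higher and 9 lower (58.3% and 18.8%, against 32.1% and 30.6% of all genes), with a median of 0.51. POLQ, the polymerase of microhomology-mediated joining, was 2.49 ± 0.13 higher in capsules (22.7 ± 1.0 CPM) than in large spheroids (4.04 ± 0.434), and ABRAXAS1, a scaffold of the BRCA1-A complex, was -1.31 ± 0.18. In large spheroids against monolayers 8 were higher and 27 lower (16.7% and 56.2%, against 28.7% and 28.4% of all genes, median -0.37). The nuclease FAN1 rose by 1.53 ± 0.15 there and POLQ changed by -2.20 ± 0.13. Small spheroids against monolayers had 14 higher and 24 lower (29.2% and 50%, against 37.0% and 35.3% of all genes, median -0.23). FAAP20 was at 1.62 ± 0.09 and the resolvase GEN1 at -1.65 ± 0.11. In capsules against monolayers 19 were higher and 15 lower (39.6% and 31.2%, against 34.5% and 31.5% of all genes, median 0.19), shares near the background. SEM1, a small acidic partner of BRCA2, was at 1.79 ± 0.08.

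Neighbouring repair pathways were counted in the same way. ATR and CHK1 signalling genes, 16 in all, had 9 higher and 4 lower in capsules against large spheroids (56.2% and 25%, against 32.1% and 30.6% of all genes). The replication checkpoint adaptor CLSPN was at 2.88 ± 0.12 and the kinase WEE1 at -0.93 ± 0.09. All 7 mismatch repair genes were lower in small spheroids than in monolayers (35.3% of all genes were), with MSH3 at -1.47 ± 0.12 and a median of -0.88. After correction 6 of 7 remained so (median -0.43), beside 32.2% of all genes. Of 15 end joining and 53BP1 genes tested, 3 were higher and 10 lower in small spheroids than in monolayers (20% and 66.7%, against 37.0% and 35.3% of all genes). In large spheroids 0 were higher and 7 lower (46.7%), against 28.7% and 28.4%. Base excision repair, 20 genes, had 12 higher and 3 lower in capsules against large spheroids (60% and 15%, against 32.1% and 30.6%), with the flap nuclease FEN1 at 1.85 ± 0.08. After correction this list had 8 higher and 4 lower, beside 31.8% and 32.1% of all genes, and its median went from 0.44 to 0.13. The 23 p53 damage targets moved both ways in each comparison. In large spheroids against monolayers, for example, 7 were higher and 11 lower (30.4% and 47.8%, against 28.7% and 28.4% of all genes). GADD45A was at 1.75 ± 0.09 and RRM2B at -0.74 ± 0.11 among these targets. Their median in small spheroids against monolayers was 0.27 and turned to -0.13 after correction.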

How the data were processed

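RNA-seq libraries of AU565 cells in 4 culture formats, 3 each, were grouped by the sample labels. The authors deposited whole-number read counts per Entrez gene, made by alignment with subread, per the file headers, and featureCounts on build hg38, per the submitters' processing notes, which also list limma. Neither labels nor headers state versions, annotation release, strand setting or row filter. Totals of the deposited counts span 13971346 to 24729250 per library. Rows without a symbol (164, holding 0.0705% of counts) were kept in the counts that entered the filter and the fit, but could not be members. The column of capsule replicate 1 spells its format unlike the label and was matched by format and number.

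The analysis used edgeR 4.0.16 under R 4.3.3: filterByExpr (minimum count 10, 15175 genes), TMM scaling, 1 quasi-likelihood fit of all 12 libraries and F tests of the 6 pairwise contrasts and of all formats together, with Benjamini-Hochberg adjustment over all genes. A gene was called at an adjusted p below 0.05. Scripts were tested on simulated data. CPM are TMM-scaled, and levels per kb divide by transcript length. The GC and length correction fitted each library's log2 deviation from the gene mean with splines and used it as an offset. Other settings were DESeq2 1.42.0, limma-voom (limma 3.58.1), library totals, no filter, only the 6 libraries compared, a replicate block, and leaving out libraries. Leaving out 4 libraries together was chosen after seeing the data.

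Members and lists were chosen with earlier results of these data known. Counts cover all 36 members, and 1 of them is not reported here by name. Values in every library are given for BRCA1, BRCA2, PALB2, FANCA, ATM and the 4 members with the largest called change in each comparison, and at most the 2 genes with the smallest adjusted p per direction are named from other lists; FANCD2 was added after its values were seen.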

Additional observations from a re-analysis of the deposited data

How the results depend on the processing

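None of the 162 called member results changed direction under library totals, DESeq2, limma-voom, no filter, only the 6 libraries compared, the replicate block, any of the 12 fits without 1 library, or the fit without 4 libraries. With the GC and length correction, alone or joined with the replicate block, 30 calls were lost with the direction kept and 6 results changed direction; the cause was not tested. Of the 6, XRCC3 (-0.24) and FANCG (-0.33) in small spheroids against monolayers and MRE11 (0.31) in capsules against monolayers were called in the new direction. BARD1 (0.23) in capsules against monolayers, MRE11 (-0.10) in large against small spheroids and FANCL (-0.03) in capsules against small spheroids were not called. Both of those fits also called members that the main fit had not. Against monolayers these were 3 in small spheroids, 3 in large spheroids and 5 in capsules. There were 5 in large against small spheroids, 4 in capsules against small spheroids and 6 in capsules against large spheroids. Such gains were not counted over all genes. In both corrected fits 4 members were called higher and 22 lower in small spheroids against monolayers (28.8% to 29% and 31.9% to 32.2% of all genes). In capsules against monolayers 18 were higher and 5 lower (31% to 31.2% and 31.7% to 32%). In large against small spheroids 6 were higher and 15 lower (25.7% to 26.1% and 24.8% to 24.9%). Over all genes, deviations of same-numbered libraries of different formats correlated at -0.215 to 0.217, beside -0.188 to 0.169 for other numbers. Heart muscle transcripts did follow the numbers: MYH6 was high in replicates 1 and 2 of monolayers and large spheroids and 0 in replicate 3 of both. Whether libraries of 1 number share an origin was not tested. With the replicate block alone, small spheroids against monolayers had 7 higher and 24 lower (36.6% and 34.8% of all genes), and 2 of the 162 calls were lost. Without the 4 libraries that hold heart muscle transcripts, 34 calls were lost, with fewer samples, and the counts became 2 higher and 14 lower in large spheroids against monolayers, 7 higher in capsules against monolayers and 8 lower in large against small spheroids.

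Leaving out 1 library at a time gave these ranges of members called higher and lower, with the share of all genes in brackets. Capsules against monolayers had 13 to 14 (31.6% to 35.7%) and 7 to 15 (28.6% to 33.2%). Capsules against large spheroids had 18 to 22 (28.6% to 33.1%) and 5 to 7 (27.2% to 32.2%). Capsules against small spheroids had 25 to 28 (22.4% to 26.6%) and 2 (21.4% to 24.9%). Large spheroids against monolayers had 3 to 4 (25.3% to 31.9%) and 20 to 24 (24.6% to 31.8%). Small spheroids against monolayers had 6 to 7 (33.3% to 38.4%) and 24 to 25 (32% to 36.6%). Large against small spheroids had 12 to 13 (29% to 34.6%) and 13 to 14 (29.9% to 35.4%). With library totals the median of all genes lay at -0.15 in small spheroids against monolayers, 0.11 in large against small spheroids and 0.12 in capsules against small spheroids, and the members' medians relative to these were -0.90, 0.04 and 0.70. With 3 libraries a format and RAD54B at 16 counts in 1 library, small changes of the rarest members were not detectable.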
